A study of Mus musculus with 6 samples.

Results

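The expression of 10 genes of the IL-6 and IL-12 cytokine families was followed in mouse macrophages in which the transcription factor gene *Etv5* was knocked down. The members were the rows whose gene symbol was *Il6*, *Lif*, *Osm*, *Clcf1*, *Il12a*, *Il12b*, *Il23a*, *Il27*, *Ebi3* or *Il6st*, and all 10 were found among the 24786 gene symbols of the expression table. The cells were Raw264.7, a macrophage line from a mouse tumor induced by Abelson leukemia virus, and the labels give C57BL/6 as strain and postnatal day 21 as age. Neither label was checked against the origin of the line. Every library came from cells infected with a lentivirus, which carried a control shRNA in the sh-NC group (3 libraries) and an shRNA against *Etv5* in the sh-*Etv5* group (3 libraries). The control cells had thus been through infection as well. No stimulus was named for either group. The labels mention Lipofectamine at infection and measurement 24 or 48 hours later, whereas the study describes stably transfected cells, so the time of harvest is uncertain. Neither source says which *Etv5* shRNA was sequenced, whether the cells were a clone or a pool, or whether the 3 libraries of a group were separate cultures. The p-values therefore measure the spread between libraries, which may be technical.

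Cytokines of the IL-6 family signal through a shared receptor chain, gp130, which *Il6st* encodes. IL-6, LIF, oncostatin M and cardiotrophin-like cytokine each bind gp130 together with a further chain, and JAK kinases on these receptors phosphorylate STAT3. Cytokines of the IL-12 family are dimers, each with a chain that resembles IL-6 and a chain that resembles a soluble receptor. IL-12 joins p35 (*Il12a*) to p40 (*Il12b*), IL-23 joins p19 (*Il23a*) to the same p40, IL-27 joins p28 (*Il27*) to EBI3 (*Ebi3*), and IL-35 joins p35 to EBI3. Macrophages are a main source of IL-6, IL-12, IL-23 and IL-27, and they make most of them only after a microbial or inflammatory signal.

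The values were RPKM, a read number corrected for gene length and for the mapped reads of the library, so levels of different genes can be compared, while the read depth of the libraries is unknown and no counting interval can be given. The RPKM of all genes had sums of 320462 to 322949 in sh-NC and of 330454 to 340257 in sh-*Etv5*. Over the tested genes the libraries of a group correlated at 0.9957 to 0.9973 and those of different groups at 0.9134 to 0.9150. *Etv5* itself stood at 9.18, 9.89 and 9.39 RPKM in sh-NC and at 5.19, 4.91 and 5.28 RPKM in sh-*Etv5* (log2 fold change -0.78, limma adjusted p = 2.74e-07), although 24.5% of the 50-base stretches of its transcripts also occur in *Gm4798*. Of 10 macrophage markers, 9 were above 1 RPKM, and *Mertk* was at 0.0254 RPKM in sh-NC and 0.0118 RPKM in sh-*Etv5*. Of the 9 tested, 5 were higher and 4 lower, beside 33.3% higher and 41.0% lower over all tested genes. *Itgam* rose from 33.8 to 127 RPKM and *Adgre1* from 2.60 to 11.3 RPKM. Among the lower, *Csf1r* fell from 428 to 244 RPKM and *Cd68* from 365 to 246 RPKM. The summed level of the 10 markers was 4572 to 4694 RPKM in sh-NC and 3699 to 3809 RPKM in sh-*Etv5*. Most of that sum was *Lyz2*, which fell from 2834 to 2041 RPKM. No marker of T and NK cells, B cells, dendritic cells, neutrophils and mast cells, or stromal and epithelial cells reached 1 RPKM in any library. The summed stromal and epithelial markers were at 0.206 to 0.383 RPKM in sh-NC and at 1.23 to 1.32 RPKM in sh-*Etv5*, and the summed B cell markers at 0.0367 to 0.199 RPKM and 0.256 to 0.733 RPKM, with *Cd79b* at means of 0.00264 and 0.294 RPKM. The summed dendritic cell markers were at 0.724 to 1.05 RPKM and 0.340 to 0.387 RPKM, where *Zbtb46* was at 0.756 and 0.148 RPKM and *Xcr1* at 0.0444 and 0.138 RPKM. The part of these differences in the results was not tested.

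In the cells with the *Etv5* shRNA, *Il6* mRNA went from a listed value of 0 to the highest level of any member, *Osm* rose 7.12-fold, *Il27* rose 4.81-fold and *Ebi3* rose 1.95-fold. The gene of their shared receptor chain moved the other way, as *Il6st* fell to 0.381 of its control level. *Lif* and *Il23a* were also higher, at levels around or under 1 RPKM. *Clcf1*, *Il12a* and *Il12b* were at or close to 0 in both groups. In RNA from whole cultures, more cells that express a gene and more RNA in each cell cannot be told apart.

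**Figure D1:**
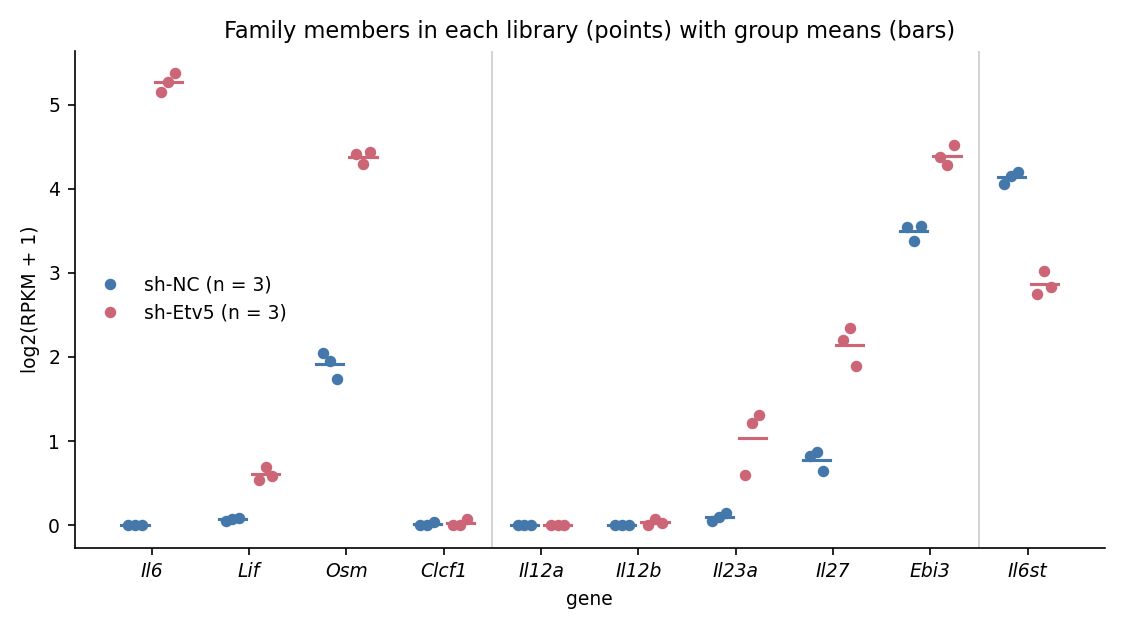
Level of each member in the 3 sh-NC and the 3 sh-Etv5 libraries, on the log2(RPKM + 1) scale, with a point for each library and a bar for each group mean; the vertical lines part the gp130 ligands, the IL-12 family subunits and the receptor chain. The groups separate in Il6, Lif, Osm, Il23a, Il27, Ebi3 and Il6st, and Il12a lies at 0 in every library.

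The test compared log2(RPKM + 1) between the groups with limma, for genes with at least 1 RPKM in at least 3 of the 6 libraries, and a gene was called when its adjusted p was under 0.05. Of the 10 members, 5 met that minimum, namely *Il6*, *Osm*, *Il27*, *Ebi3* and *Il6st*, and all 5 were called. *Il6* and *Il27* were under 1 RPKM in every sh-NC library, so they entered the test only through the group in which they were high. The background was broad, since 74.3% of the 10738 tested genes were called, 33.3% higher and 41.0% lower. When all 24786 symbols were fitted without a minimum, 6 of the 10 members were higher and 1 was lower, against 15.0% and 15.9% of all symbols and 30.9% in either direction. For 7 of the 10 members no sh-NC library fell within the range of sh-*Etv5*, compared with 39.8% of all symbols. The median log2 fold change of the tested genes was -0.05.

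*Il6*, the gene of the pro-inflammatory cytokine IL-6, lies on the plus strand of chromosome 5 (GRCm38, 30013114 to 30019981). It was listed at 0 RPKM in each sh-NC library but reached 34.5, 37.5 and 40.4 RPKM with sh-*Etv5* (37.4 ± 2.95 RPKM, SD, n = 3). Every sh-*Etv5* library was thus far above every control. A 0 in such a table can be a failed estimate. A check of 12 genes that all cells use found no 0 in any library. These genes stood at 11.9 RPKM or more, so they cannot show whether a 0 of a low gene is a failed value. No 50-base stretch of the *Il6* transcripts occurs in another gene. The difference on the log2(RPKM + 1) scale was 5.26 (SE 0.07, 95% interval 5.11 to 5.41, adjusted p = 2.21e-13), which ranked 11 from the top among the tested genes. This difference depends on the pseudocount, because the control group has no level above 0 to divide by, and it reached 11.9 with a pseudocount of 0.01. Of the 8589 genes listed at 0 in every sh-NC library, 2 reached at least 10 RPKM in every sh-*Etv5* library, *Il6* and the predicted gene *Gm5416*. The limit of 10 RPKM was set with the level of *Il6* known, and genes just above 0 in sh-NC were not counted.

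The genes outside the lists described here whose pattern over the 6 libraries was most like that of *Il6*, by Euclidean distance on the log2(RPKM + 1) scale, were *Lix1* (distance 0.394), *Gm5416* (0.438) and *Edn1* (0.982), which encodes the endothelin-1 precursor. *Lix1* was at a mean of 0.0721 RPKM in sh-NC and 32.5 RPKM in sh-*Etv5*. *Gm5416* was listed at 0 in sh-NC and stood at 31.5 RPKM in sh-*Etv5*. *Edn1* went from 0.0521 to 25.1 RPKM. They were chosen for this likeness, so these levels are a description.

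*Osm* encodes oncostatin M, a gp130 cytokine made mainly by leukocytes, and lies on the plus strand of chromosome 11 (4236420 to 4241026). Its level was 3.15, 2.86 and 2.34 RPKM with sh-NC and 20.2, 18.5 and 20.7 RPKM with sh-*Etv5*. The lowest knockdown library was several-fold above the highest control. The means were 2.78 ± 0.409 and 19.8 ± 1.15 RPKM (SD, n = 3), and the log2 fold change was 2.47 (SE 0.08, 95% interval 2.29 to 2.64, adjusted p = 4.17e-10). *Osm* ranked 100 from the top among the tested genes.

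*Lif*, the gene of leukemia inhibitory factor, starts 16.5 kb beyond the end of *Osm* on the same strand (chromosome 11, 4257557 to 4272514). It was at 0.0341, 0.0547 and 0.0578 RPKM in sh-NC and at 0.450, 0.619 and 0.498 RPKM in sh-*Etv5*. The groups did not overlap, but no library reached 1 RPKM, so *Lif* did not meet the minimum level. In the fit of all symbols its log2 fold change was 0.54 (95% interval 0.42 to 0.66, adjusted p = 0.00111), and the ratio of the mean levels was 10.7. The log2 value is smaller than that ratio because the pseudocount of 1 exceeds both levels.

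*Clcf1* encodes cardiotrophin-like cytokine factor 1 and lies on chromosome 19 (4214238 to 4223490, plus strand). It was at 0 RPKM in 4 of the 6 libraries, and the values in sh-NC replicate 3 and sh-*Etv5* replicate 3 were 0.0253 and 0.0514 RPKM. The groups overlapped, and the fitted log2 difference was 0.01 with a 95% interval of -0.05 to 0.08 (adjusted p = 0.988). At these levels no difference was detectable.

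Among the IL-12 family subunits, *Ebi3* was the most abundant. *Ebi3* lies on chromosome 17 (55952640 to 55957022, plus strand) and was at 10.6, 9.42 and 10.8 RPKM in sh-NC and at 19.7, 18.5 and 21.9 RPKM in sh-*Etv5*. The groups were well apart, with means of 10.3 ± 0.757 and 20.0 ± 1.75 RPKM (SD, n = 3) and a log2 fold change of 0.90 (SE 0.07, 95% interval 0.75 to 1.05, adjusted p = 4.26e-07). An antisense gene, *Gm16712*, shares 23.4% of the exon bases of *Ebi3*, and it stood at 2.26 RPKM in sh-NC and 4.25 RPKM in sh-*Etv5*. The strand setting of the counting was not given in the sources used here, so reads from the shared bases cannot be assigned to either gene.

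*Il27*, the gene of the p28 chain, lies on the minus strand of chromosome 7 (126589010 to 126594941). It was at 0.774, 0.822 and 0.564 RPKM in sh-NC and at 3.61, 4.07 and 2.72 RPKM in sh-*Etv5*. The lowest knockdown library was above the highest control, and the means were 0.720 ± 0.137 and 3.46 ± 0.686 RPKM (SD, n = 3). The log2 fold change was 1.37 (SE 0.11, 95% interval 1.11 to 1.62, adjusted p = 9.13e-07). The opposite-strand gene *Apobr*, which shares 10.1% of the exon bases of *Il27*, was at 21.8 RPKM in sh-NC and 27.2 RPKM in sh-*Etv5*, and the same limit applies there.

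*Il23a*, which encodes the p19 chain of IL-23, lies on the minus strand of chromosome 10 (128296139 to 128298752). It was at 0.0357, 0.0713 and 0.107 RPKM in sh-NC and at 0.510, 1.32 and 1.48 RPKM in sh-*Etv5*. The groups did not overlap, although the first knockdown library was well under the others, and 2 libraries reached 1 RPKM. In the fit of all symbols its log2 fold change was 0.94 (SE 0.21, 95% interval 0.38 to 1.498, adjusted p = 0.0292). This call was lost when any sh-NC library, or sh-*Etv5* replicate 2 or 3, was left out (adjusted p = 0.0757 to 0.0987).

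The partners that would complete IL-12 and IL-23 were close to absent from the table. *Il12b*, the gene of the p40 chain (chromosome 11, 44400063 to 44414033, plus strand), was listed at 0 in each sh-NC library and at 0, 0.0542 and 0.0214 RPKM in sh-*Etv5*. The fitted log2 difference was 0.04 with a 95% interval of -0.02 to 0.09 (adjusted p = 0.335). *Il12a*, the gene of the p35 chain (chromosome 3, 68690644 to 68698547, plus strand), was listed at 0 in all 6 libraries. Neither transcript shares a 50-base stretch with another gene.

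The chains of a dimer were then compared with each other within each library. The RPKM of *Ebi3* was 13.7, 11.4 and 19.1 times that of *Il27* in the sh-NC libraries and 5.47, 4.54 and 8.07 times in the sh-*Etv5* libraries, so the ratios of the groups did not overlap. On the log2 scale with a pseudocount of 1, the ratio of *Il27* to *Ebi3* was higher by 0.47 in sh-*Etv5* (exact two-sided permutation test, p = 0.2, adjusted over 4 pairs 0.267). The ratio of *Il23a* to *Il12b* was higher by 0.91 (exact p = 0.1, adjusted 0.2). That of *Il12a* to *Ebi3* differed by -0.90 (exact p = 0.1, adjusted 0.2) and that of *Il12a* to *Il12b* by -0.04 (exact p = 0.4, adjusted 0.4). *Il12a* was 0 in all 6 libraries, so its ratios only restate the changes of *Ebi3* and *Il12b* with the sign reversed. *Il12b* was at most 0.0542 RPKM, so at this pseudocount the ratio of *Il23a* to *Il12b* mostly restates the change of *Il23a* (log2 fold change 0.94). The ratios with *Il12a* or *Il12b* do not describe a balance of subunits. With 3 libraries in each group this test cannot go below 0.1, and none of the 4 pairs passed.

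*Il6st*, the gene of gp130, lies on the plus strand of chromosome 13 (112464070 to 112510086). It was the only member that fell. Its level was 15.7, 16.7 and 17.3 RPKM in sh-NC and 5.70, 7.14 and 6.11 RPKM in sh-*Etv5*, and every knockdown library was well under every control. The means were 16.6 ± 0.859 and 6.32 ± 0.739 RPKM (SD, n = 3), so the mean fell by 61.9%. The log2 fold change was -1.27 (SE 0.07, 95% interval -1.43 to -1.11, adjusted p = 3.82e-08), which ranked 154 from the bottom among the tested genes. No 50-base stretch of its transcripts occurs in another gene.

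The order of the members by level differed between the groups. In sh-NC the receptor chain led, with *Il6st* at 16.6 RPKM, followed by *Ebi3*, *Osm* and *Il27*, each apart from the next in every library. *Il23a* at 0.0713 RPKM and *Lif* at 0.0489 RPKM overlapped, and *Clcf1*, *Il6*, *Il12a* and *Il12b* were at or near 0. In sh-*Etv5*, *Il6* led at 37.4 RPKM, and *Ebi3* at 20.0 RPKM and *Osm* at 19.8 RPKM followed without differing beyond their spread. *Il6st* came next at 6.32 RPKM, then *Il27* at 3.46 RPKM, and the libraries of *Il23a* and *Lif* overlapped again.

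The receptor chains that pair with gp130 or serve the IL-12 family were mostly near 0, and the IL-6 binding chain was the highest of them. *Il6ra*, which encodes the IL-6 binding chain, was at 16.1, 16.6 and 16.97 RPKM in sh-NC and at 10.0, 10.3 and 10.2 RPKM in sh-*Etv5*, so the groups were far apart. Its log2 fold change was -0.65 (SE 0.05, adjusted p = 1.96e-07), and the mean fell to 0.615 of the control. The RPKM of *Il6ra* relative to *Il6st* was 1.03, 0.995 and 0.978 in sh-NC and 1.76, 1.45 and 1.67 in sh-*Etv5*. *Il12rb1*, a chain shared by the receptors of IL-12 and IL-23, rose from 0.988 to 1.78 RPKM (log2 fold change 0.49, adjusted p = 0.000185). *Il11ra1*, the IL-11 receptor chain, was at 2.25 and 2.28 RPKM (log2 fold change 0.01, 95% interval -0.21 to 0.22, adjusted p = 0.961), and 46.3% of its 50-base stretches occur in its copies *Il11ra2* and *Gm13305*. The remaining 7 of the 10 chains did not meet the minimum level. Over the 6 libraries these chains peaked at 0.00510 RPKM for the LIF receptor gene *Lifr*, 0.00639 RPKM for the oncostatin M receptor gene *Osmr*, 0.0131 RPKM for *Il31ra*, 0.0364 RPKM for *Il23r*, 0.0998 RPKM for *Il12rb2* and 0.244 RPKM for *Il27ra*, and *Cntfr* was listed at 0.

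Of 5 further ligands of gp130 or its partners, *Cntf*, the ciliary neurotrophic factor gene, alone met the minimum. It was at 1.19, 0.717 and 0.690 RPKM in sh-NC and at 1.21, 1.18 and 1.26 RPKM in sh-*Etv5*, so the groups overlapped, and its log2 fold change was 0.26 (adjusted p = 0.0476). That call was lost when any library other than sh-NC replicate 1 was left out, and 78.9% of the exon bases of *Cntf* lie within exons of *Zfp91*, which was at 30.8 RPKM in sh-NC and 26.4 RPKM in sh-*Etv5*. *Ctf1*, the cardiotrophin-1 gene, was at 0.0760 RPKM in sh-NC and 0.298 RPKM in sh-*Etv5* (fit of all symbols, adjusted p = 0.0117). *Il11* had a highest value of 0.132 RPKM, and *Ctf2* and *Il31* were listed at 0.

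**Figure D2:**
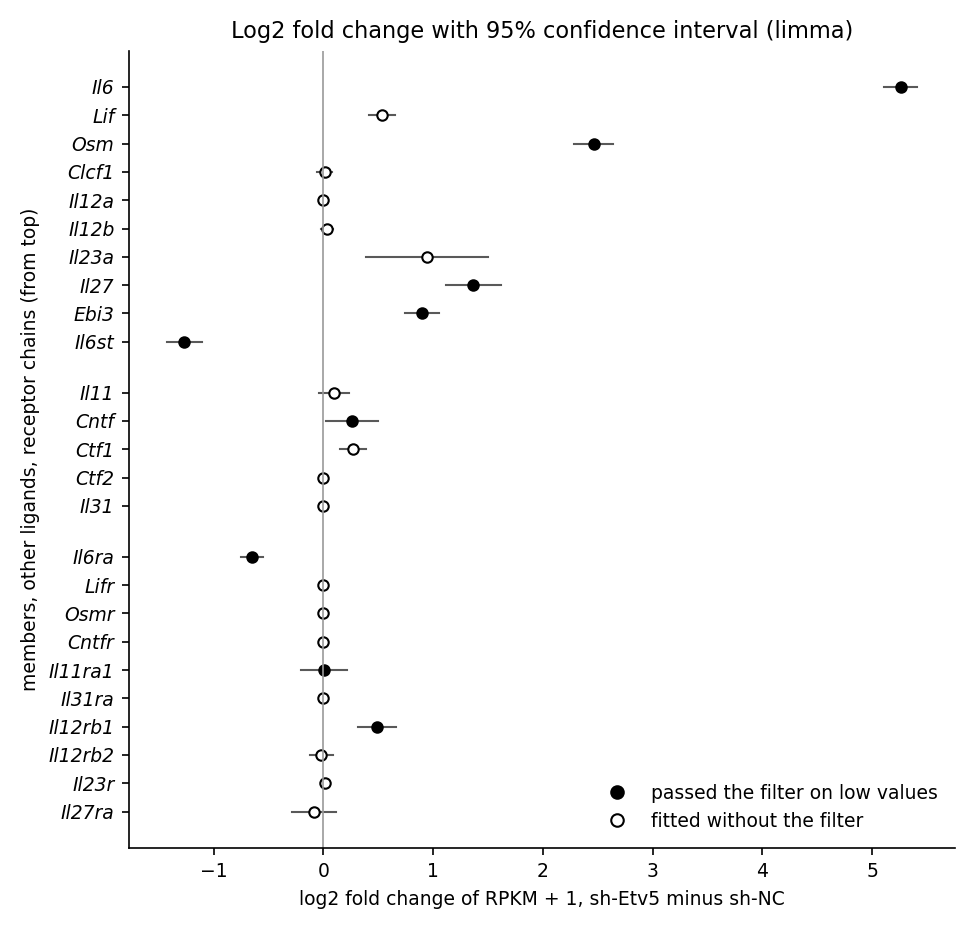
Log2 fold change of RPKM + 1 (sh-Etv5 minus sh-NC) with its 95% confidence interval for the 10 members, 5 other ligands and 10 receptor chains, from top to bottom; filled points met the minimum level and open points come from the fit of all symbols. Il6 lies furthest to the right at 5.26, and Il6st at -1.27 and Il6ra at -0.65 lie furthest to the left.

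Of 16 kinases, STAT factors and adaptors of this pathway 14 were tested, of which 6 were higher, 5 lower and 3 not called, with a median log2 fold change of 0.05. The share called, 78.6%, was near the 74.3% of all tested genes. *Stat3*, the main STAT factor downstream of gp130, rose from 15.7 to 29.4 RPKM (log2 fold change 0.87, adjusted p = 6.42e-09). *Gab2*, an adaptor protein gene, rose from 4.38 to 10.2 RPKM (1.06, adjusted p = 6.94e-08), and *Shc1*, another adaptor, fell from 31.4 to 20.6 RPKM (-0.58, adjusted p = 5.68e-07).

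Among the feedback inhibitors *Socs3* stood apart. SOCS3 binds gp130 and the JAK kinases and shuts off IL-6 signaling. Its mRNA was at 1.57, 1.99 and 1.67 RPKM in sh-NC and at 72.2, 72.1 and 68.8 RPKM in sh-*Etv5*, with no overlap and a 40.8-fold ratio of the means (log2 fold change 4.72, SE 0.06, adjusted p = 2.14e-13). Of 14 inhibitors 12 were tested, and 4 were higher, 3 lower and 5 not called, with a median of 0.01. Thus 58.3% were called, below the 74.3% of all tested genes. Next in size were *Pias4* (0.37, adjusted p = 0.000268), of a family that restrains activated STATs, and *Ptpn2* (-0.36, adjusted p = 0.00154), a phosphatase of JAK and STAT proteins. *Socs1*, a JAK inhibitor gene of the same family as *Socs3*, was at 1.54 and 1.69 RPKM (0.09, adjusted p = 0.428).

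Of 22 genes known as STAT3 targets 20 were tested, and 16 were higher, 2 lower and 2 not called, beside 33.3% higher and 41.0% lower over all tested genes. Their median log2 fold change was 1.41 beside -0.05 over all tested genes. Among the 20, *Il4ra*, *Il10*, *Myc* and *Saa3* entered the test only through their levels in sh-*Etv5*. The direction of these 4 was thus fixed by the minimum, and they are part of the 16 and of the median. The list was chosen with earlier results of these data known, so its counts and median are a description. After *Socs3*, the largest changes were in *Il1rn*, the gene of the IL-1 receptor antagonist (14.7 to 177 RPKM, log2 fold change 3.51), and *Bcl3*, the gene of an atypical IκB protein (1.32 to 24.9 RPKM, 3.48). The lower genes were *Ccnd1* (-0.35) and *Hif1a* (-0.14), and their count was 1 without sh-*Etv5* replicate 1. Many of these genes also answer to NF-κB or other factors.

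Regulators of these cytokines were examined at the promoter and at the mRNA. Of 23 transcription factors and cofactors known to act on *Il6* or IL-12 family promoters 22 were tested, and 16 were higher, 3 lower and 3 not called, with a median of 0.46. The share called was 86.4%, beside 74.3% of all tested genes, of which 33.3% were higher. *Batf* was under 1 RPKM in every sh-NC library and entered the test only through sh-*Etv5*. *Nfkbiz*, whose product IκB-ζ is needed for *Il6* induction, rose from 3.46 to 48.1 RPKM (log2 fold change 3.46, adjusted p = 5.21e-13). *Atf3*, a stress-response factor that restrains inflammatory genes, rose from 12.0 to 119.5 RPKM (3.21, adjusted p = 1.53e-13), and *Cebpd*, a C/EBP factor, from 11.4 to 59.8 RPKM (2.31, adjusted p = 8.1e-10). The lower genes were *Cebpa* (-1.33), *Irf3* and *Irf5*.

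Of 12 factors that bind cytokine mRNAs 11 were tested, and 4 were higher, 5 lower and 2 not called, with a median of -0.03. The share called, 81.8%, was near the 74.3% of all tested genes, of which 33.3% were higher and 41.0% lower. *Zfp36*, whose product tristetraprolin speeds the decay of cytokine mRNAs, rose from 19.0 to 107 RPKM (log2 fold change 2.43, adjusted p = 1.1e-12). *Zc3h12a*, which encodes Regnase-1, a nuclease that cuts *Il6* and *Il12b* mRNA, rose from 4.02 to 24.0 RPKM (2.32, adjusted p = 6.45e-11), and its relative *Zc3h12c* from 4.38 to 13.9 RPKM (1.48, adjusted p = 1.96e-09). *Arid5a*, whose product stabilizes *Il6* mRNA, rose as well (1.11, adjusted p = 4.6e-07). Other genes whose products promote mRNA decay fell, among them *Zfp36l2* (-0.83, adjusted p = 9.92e-09), *Zfp36l1* (-0.78, adjusted p = 5.34e-08) and *Khsrp* (-0.72, adjusted p = 1.14e-07).

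**Figure D3:**
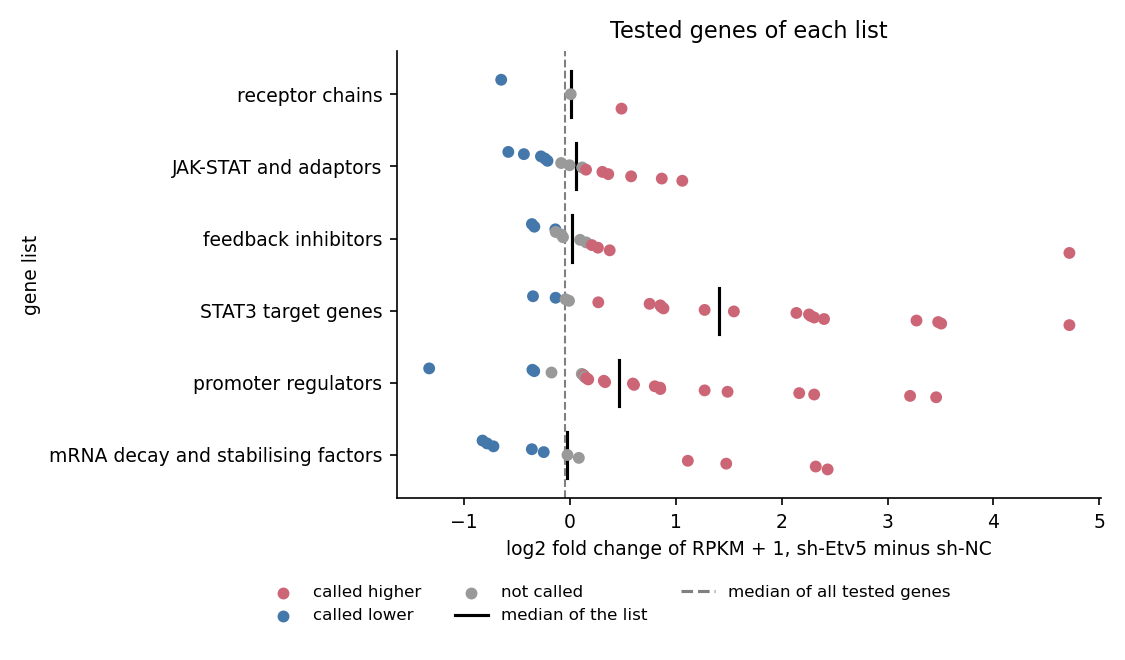
Log2 fold change of RPKM + 1 (sh-Etv5 minus sh-NC) of each tested gene in 6 lists of pathway genes, colored by whether limma called it higher, lower or neither; black bars are list medians and the dashed line is the median of all tested genes, -0.05. The STAT3 target genes have the highest median of the 6 lists, 1.41, and Socs3, which is in both that list and the feedback inhibitors, is the rightmost point of each at 4.72. The lists were chosen with earlier results of these data known. Il4ra, Il10, Myc and Saa3 among the STAT3 targets and Batf among the promoter regulators met the minimum only through sh-Etv5.

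The promoters of members that differed in response were read for motifs of factors that act on such genes. RefSeq promoters on GRCm38.p6, each reaching from 250 bases before a start of transcription to 50 after it, were given for 6 of the 10 members. *Osm*, *Clcf1*, *Il23a* and *Il27* had no entry. The letters searched on both strands were GGAAGT for ETS factors, the class of ETV5, GGGA and CC with any 4 bases between them for NF-κB, TGANTCA for AP-1, TTNNGNAA for C/EBP and TTCNNNGAA for STAT. Of all 32851 promoters in the table, 23.8% held the ETS letters, 20.7% those of NF-κB, 7.81% those of AP-1, 40.7% those of C/EBP and 8.30% those of STAT. The 250 bases before the start are printed 5′ to 3′ for 3 members that were higher (*Il6*, *Lif* and *Ebi3*), for *Il12b*, which stayed near 0, and for *Il6st*, which fell, with matches in capitals and each sequence given with its window on the plus strand.
Il6 (chr5:30012864-30013113): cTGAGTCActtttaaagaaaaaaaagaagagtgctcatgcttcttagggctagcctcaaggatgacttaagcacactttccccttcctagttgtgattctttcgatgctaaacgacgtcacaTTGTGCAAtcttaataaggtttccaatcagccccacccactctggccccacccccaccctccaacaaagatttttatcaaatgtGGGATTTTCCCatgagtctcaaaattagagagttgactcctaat
Lif (chr11:4257318-4257567): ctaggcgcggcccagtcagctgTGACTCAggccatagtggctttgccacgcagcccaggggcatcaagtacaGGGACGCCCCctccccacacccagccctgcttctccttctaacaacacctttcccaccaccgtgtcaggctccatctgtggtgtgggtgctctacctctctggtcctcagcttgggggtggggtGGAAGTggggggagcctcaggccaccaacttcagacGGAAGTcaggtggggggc
Ebi3 (chr17:55952373-55952622): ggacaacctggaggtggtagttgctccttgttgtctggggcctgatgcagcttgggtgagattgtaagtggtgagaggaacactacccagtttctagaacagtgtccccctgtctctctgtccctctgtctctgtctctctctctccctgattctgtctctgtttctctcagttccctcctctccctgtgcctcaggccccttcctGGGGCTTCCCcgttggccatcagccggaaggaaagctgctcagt
Il12b (chr11:44399813-44400062): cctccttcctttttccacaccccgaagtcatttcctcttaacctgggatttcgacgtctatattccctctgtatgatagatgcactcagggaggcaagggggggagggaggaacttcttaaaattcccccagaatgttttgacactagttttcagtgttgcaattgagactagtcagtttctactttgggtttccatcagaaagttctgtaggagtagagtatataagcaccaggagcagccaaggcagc
Il6st (chr13:112463820-112464069): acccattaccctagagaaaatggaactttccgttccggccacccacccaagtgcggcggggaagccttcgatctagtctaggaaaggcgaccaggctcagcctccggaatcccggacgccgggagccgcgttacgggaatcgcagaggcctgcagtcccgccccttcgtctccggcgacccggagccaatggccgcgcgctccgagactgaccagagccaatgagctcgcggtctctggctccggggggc

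In *Il6* the capitals are, from left to right, an AP-1 match 249 bases before the start, a C/EBP match 128 bases before it, and overlapping NF-κB matches on the 2 strands at 44 and 43 bases. The *Lif* window held an AP-1 match at 228 bases, an NF-κB match at 178 bases and ETS matches at 54 and 18 bases before the start. The *Ebi3* window held an NF-κB match on the minus strand 44 bases before the start, and another lay beyond the start, at base 36. *Il12a* has 2 starts in the table, of which the second had overlapping NF-κB matches at 113 and 112 bases before it and a further match at base 18, while the first had none of the 5 motifs. The *Il12b* and *Il6st* windows held none of the 5 motifs either. No member's window held the STAT letters. These matches are a description of short windows and do not show binding. Sites that differ from the searched letters were not counted, so a window without a match can still hold sites of these factors.

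**Figure D4:**
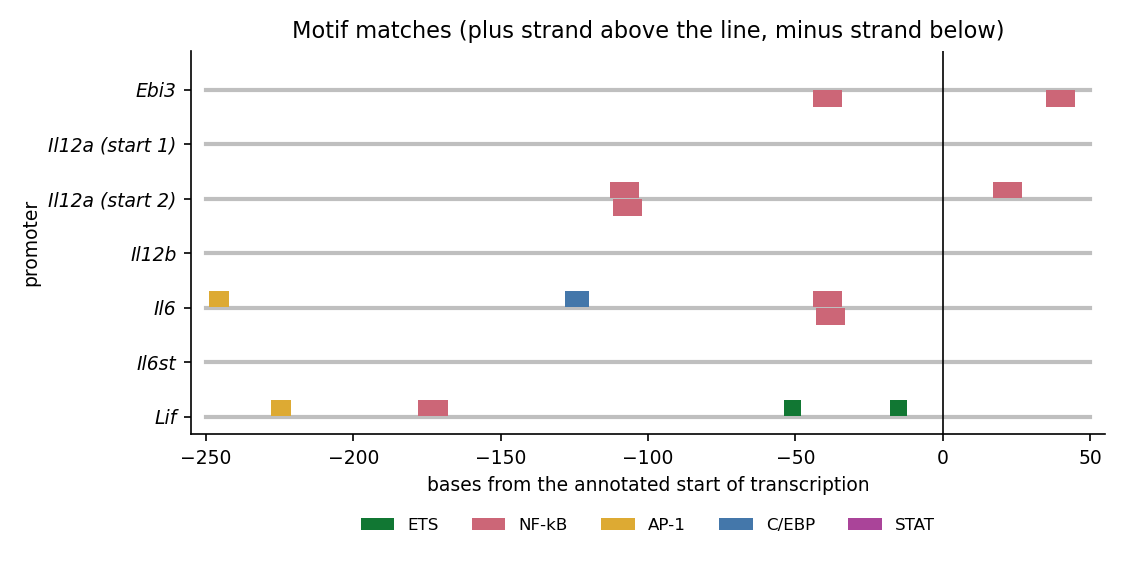
Positions of motif matches in the RefSeq promoters of 6 members, in bases from the annotated start of transcription (0, vertical line), with plus-strand matches above each line and minus-strand matches below it. NF-κB matches lie 44 bases before the start in both Il6 and Ebi3. They also occur in Lif and at the second start of Il12a, a gene listed at 0 in every library. ETS matches occur only in Lif among these windows, and Il12b, Il6st and the first start of Il12a have no match.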

How the data were processed

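Polyadenylated RNA of 6 Raw264.7 libraries was sequenced after preparation with the Illumina TruSeq RNA kit v2. The authors deposited RPKM values, 1 per gene symbol and library, which the file headers trace to bedGraph coverage tracks. The submitters' processing notes name the build mm10, and the aligner, counter, annotation and strand setting are not given in the sources used here. RPKM already carries length and depth scaling, so read counts were not recovered and depth is unknown. Because each library is scaled to its own total, a change in very abundant genes moves the values of the rest.

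Groups and replicate numbers came from the sample labels. Genes that reached 1 RPKM in 3 or more of the 6 libraries (10738 of 24786) were compared on log2(RPKM + 1) by limma 3.58.1, the package that the study's methods name (R 4.3.3, moderated by eBayes with trend, two-sided), and Benjamini-Hochberg adjusted p under 0.05 was called. Members under that minimum were taken from the same fit on all symbols. Fold changes on this scale understate the change of low genes. Subunit ratios were compared by exact permutation in SciPy 1.17.1. The script was tested on simulated data. Symbols were matched to GENCODE M21 on GRCm38 (24255 of 24786), and overlaps and shared 50-base stretches were computed from it. Alternatives were pseudocounts of 0.1 and 0.01, no minimum, a mean RPKM of at least 5, a common sum, quantile normalization, no trend, the replicate number as a block and each library left out.

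The members and the gene lists were chosen with earlier results of these data known. The text names all members, *Etv5*, the other ligands except 1 that is not reported here, every receptor chain, the 3 called genes with the largest absolute change in each pathway list, and the 3 genes nearest to *Il6*. Other genes were named after their values were seen. Genes present in more than 1 list count in each.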

Additional observations from a re-analysis of the deposited data

How the results depend on the processing

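*Il6*, *Osm*, *Il27*, *Ebi3*, *Il6st* and *Etv5* kept their direction and their call wherever they were tested. Over all alternatives the log2 fold change ran from 5.21 to 11.9 for *Il6*, 2.38 to 2.84 for *Osm*, 1.26 to 2.25 for *Il27*, 0.83 to 0.96 for *Ebi3*, -1.40 to -1.21 for *Il6st* and 0.45 to 3.19 for *Lif*, the high ends of *Il6*, *Il27* and *Lif* coming from smaller pseudocounts. *Il27* could not be tested at a mean RPKM of at least 5. The *Il23a* call was lost in 6 of 12 alternatives, with an adjusted p of 0.0681 under the replicate block. *Clcf1* ran from -0.0120 to 0.0242 with each library left out and was negative, at -0.0120, without sh-*Etv5* replicate 3. The count of other ligands called higher, *Cntf* alone, went from 1 to 0 with a pseudocount of 0.01, a mean RPKM of at least 5, a common sum, quantile normalization and the replicate block (adjusted p = 0.0541 under the block), and was 0 to 1 with libraries left out. Receptor chains called higher went from 1 to 0 at a mean RPKM of at least 5, a level that *Il12rb1* did not meet. *Cntf* did not meet it either, so neither gene was tested there. STAT3 targets called lower went from 2 to 1 without a minimum and with quantile normalization, and was 1 to 2 with libraries left out. Pseudocounts of 0.1 and 0.01 gave log2 ratio differences of -0.30 and -1.45 for *Il12a* to *Il12b*, 2.42 and 2.29 for *Il23a* to *Il12b*, and 1.16 and 1.29 for *Il27* to *Ebi3* (exact p = 0.1 for the last at either setting). The ratio differences depended on the pseudocount. *Il12a* and *Il12b* were at or near 0, and *Il27* was under 1 RPKM in sh-NC. The causes of the other shifts were not tested. The remaining comparisons of an alternative with the reported value stayed within the limits set for a change. They were 110 for single members and 254 for *Etv5* and the summary values together.

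The deviations of same-numbered libraries from their group means correlated at 0.0739, -0.0710 and -0.0352. Only the replicate 1 libraries matched best with their own number. No clear pairing by number is visible in these values, but how the libraries were made is not stated, so pairing is unknown. The block gave 3539 genes higher and 4361 lower, against 3575 and 4399 without it. A common sum lowered the median log2 fold change of all tested genes from -0.05 to -0.10 and the share of called genes that were higher from 44.8% to 38.9%. The unknown depth limits what can be said of *Clcf1*, *Il12a*, *Il12b* and the receptor chains near 0, and the 3 libraries per group limit the exact tests to p of at least 0.1.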

Other observations

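*Osm* and *Lif* lie 16.5 kb apart on chromosome 11, and the genes within 100 kb of them, named here after their values were seen, moved in different directions. *Sf3a1*, a splicing factor subunit gene, was at 36.5, 34.5 and 36.9 RPKM in sh-NC and at 20.1, 19.9 and 17.2 RPKM in sh-*Etv5*, so it fell (log2 fold change -0.88, adjusted p = 1.27e-07). *Tbc1d10a*, the nearest tested gene before *Osm*, was at a mean of 5.97 RPKM in sh-NC and 6.35 RPKM in sh-*Etv5* (0.08, adjusted p = 0.341). *Rnf215* rose from 3.67 to 4.87 RPKM (0.34, adjusted p = 0.0221). *Ccdc157*, *Mir3060* and *Hormad2* did not meet the minimum level.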
